A study of Mus musculus with 11 samples.

Results

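*Ube2a* and *Ube2b* encode the 2 mouse forms of RAD6, a ubiquitin-conjugating (E2) enzyme, and they were studied here together with 6 genes whose products work with RAD6. The 8 genes were named by symbol from a table of 54146 genes, and they were chosen by the measured fall of *Ube2a* in *Prdm10* mutant embryos. The values of *Ube2a* are therefore a description with no test, and the question asked of the others was whether the RNA of *Ube2b* was raised where that of *Ube2a* was lost. The partners were *Rad18* (the E3 ligase that directs RAD6 to the replication clamp PCNA), *Rnf20* and *Rnf40* (the paired E3 ligase for histone H2B), *Wac* (a cofactor of that pair), and *Ubr1* and *Ubr2* (E3 ligases that recognise N-terminal degradation signals).

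An E2 enzyme takes activated ubiquitin from an E1 enzyme and, together with an E3 ligase that binds the substrate, passes it to a lysine of the target protein. RAD6 is known for 3 such tasks, each with its own ligase: mono-ubiquitination of histone H2B on transcribed genes, mono-ubiquitination of PCNA at stalled replication forks, which recruits translesion polymerases, and degradation of proteins through the N-degron pathway. In the mouse both RAD6 proteins carry out these reactions, and males that lack *Ube2b* are infertile.

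Single 8-cell embryos were collected at E2.5 from natural intercrosses of *Prdm10* Δ/+ mice on a C57BL/6 background. The Δ allele lacks exon 5 after ACTB-Cre recombination of a floxed EUCOMM allele, and all embryos, controls included, had heterozygous parents. The 5 mutants (KO) were Δ/Δ and the 6 controls were wild-type or heterozygous (WT/HET, not told apart by the labels), with the genotype read from exon 5 in the embryo's own cDNA. Polyadenylated RNA was amplified by Smart-seq2 with 16 PCR cycles in batch 1 (3 controls, 2 mutants) and 13 in batch 2 (3 controls, 3 mutants). Each library held 3534735 to 8265840 expected counts, the number of reads that RSEM assigned to genes. *Prdm10* itself was at 11.1 to 24.8 TPM in controls and 4.88 to 8.16 TPM in mutants, and its log2 fold change of -0.66 ± 0.26 (SE) had an adjusted p of 0.22 in DESeq2. That fit is not corrected for length, and the effective length of *Prdm10* was 2565 to 3357 bases in controls and longer in all 5 mutants, at 4348 to 5051 bases. Of the 8 markers of the cleavage embryo, 7 were detected above the mean of 10 normalised counts used here as the minimum, whereas none of the 5 cumulus and granulosa markers (summed level up to 0.47 TPM in controls and 7.83 TPM in mutants) and none of the 5 stroma and blood markers (up to 10.9 and 2.62 TPM) passed it. *Foxl2*, a defining granulosa gene, was at 0 in every embryo, while *Inha*, another of that list, was at 0 in every control and reached 7.83 TPM in 1 mutant. Of the 7 cleavage markers tested 1 was called, beside 1.45% of all genes tested, namely *Klf5*, which was higher in mutants (97.1 against 172 TPM, log2 fold change 0.84 ± 0.14 SE, DESeq2 adjusted p = 1.07e-06), and 4 had an unadjusted p under 0.05. The median log2 fold change of these markers was 0.38, and the list's summed level was 797 to 1240 TPM in controls and 920 to 1601 TPM in mutants. Of 4 oviduct markers 1 passed, *Ovgp1*, and the list's summed level was 0.29 to 25.2 TPM in controls and 0.33 to 32.4 TPM in mutants. The part of these markers in the results below was not tested. In an embryo measured whole, a smaller share of cells with an RNA and less of that RNA per cell cannot be told apart.

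*Ube2a* (ENSMUSG00000016308.12) lies on chrX:36873900-36884222, plus strand, and *Ube2b* (ENSMUSG00000020390.12) on chr11:51985497-52000762, minus strand (GRCm38.p6, GENCODE gene models). Both are among 633 genes that the study lists as bound by PRDM10, and these were the only 2 of the 8 on that list. The list comes from ChIP-seq in mouse embryonic stem cells, not in embryos. It takes peaks near or within a gene body, so a listed gene need not be bound at its start. The sequences around the starts of *Ube2a* and *Ube2b* are shown because the gel-shift probe, on which the study tested PRDM10, carries a short motif. It is written here as TGGT, any 5 bases, then CC (TGGTNNNNNCC), a form that the paper's text does not spell out. The fixed bases of the motif are in capitals in the probe. In the windows the whole 11-base match is in capitals. The windows are 250 bases before to 50 after the RefSeq starts of the genes in GRCm38.p6, read 5′ to 3′ on the strand of the gene.
Gel-shift probe: ctggcacagTGGTcgcgcCCggcccgcc
*Ube2a*, chrX:36874045-36874344, plus strand: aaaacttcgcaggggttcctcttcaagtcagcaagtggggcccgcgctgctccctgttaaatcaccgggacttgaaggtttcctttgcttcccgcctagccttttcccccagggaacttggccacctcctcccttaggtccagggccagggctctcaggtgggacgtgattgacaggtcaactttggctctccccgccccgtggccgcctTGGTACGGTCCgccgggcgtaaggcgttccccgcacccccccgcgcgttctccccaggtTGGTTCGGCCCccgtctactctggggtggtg
*Ube2b*, chr11:52000737-52001036, minus strand: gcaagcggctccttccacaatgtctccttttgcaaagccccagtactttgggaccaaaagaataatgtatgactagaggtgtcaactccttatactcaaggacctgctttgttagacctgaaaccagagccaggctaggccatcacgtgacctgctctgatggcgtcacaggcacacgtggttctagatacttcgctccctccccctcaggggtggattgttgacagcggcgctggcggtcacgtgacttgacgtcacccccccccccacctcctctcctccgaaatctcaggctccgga
*Ube2b*, chr11:52000442-52000741, minus strand: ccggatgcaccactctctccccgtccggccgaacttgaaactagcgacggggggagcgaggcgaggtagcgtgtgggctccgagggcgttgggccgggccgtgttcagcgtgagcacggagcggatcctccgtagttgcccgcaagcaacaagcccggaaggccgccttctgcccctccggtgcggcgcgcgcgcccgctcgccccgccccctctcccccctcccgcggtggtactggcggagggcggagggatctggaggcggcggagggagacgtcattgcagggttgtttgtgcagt
The *Ube2a* window held 2 matches on the strand of the gene, TGGTACGGTCC with its first base 40 bases before the annotated start and TGGTTCGGCCC with its first base 19 bases after it. Neither *Ube2b* window held a match on either strand, which says only that these letters are not in these 300 bases. Windows were present for 7 of the 8 genes, all but *Wac*, and *Ube2a* was the only 1 of the 7 with a match. The RefSeq starts need not be those used in these embryos. The *Rnf20* window, for example, began at base 49638375, inside a gene span that began at 49632006 on the plus strand. On both strands, 15.6% of 27025 genes had a window with at least 1 match, and 1.37% of 32851 windows had 2 or more. A match is a description of sequence and was not tied to binding here.

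RNA of *Ube2a* was nearly lost from mutant embryos, and RNA of *Ube2b* was not higher in them. In TPM, a share of each library's transcripts that is corrected for transcript length, *Ube2a* was at 142 at the lowest, 242 at the median and 291 at the highest of the 6 controls. In the 5 mutants it was at 9.45, 19.7 and 3.01 TPM in batch 2 and at 21.5 and 16.1 TPM in batch 1. Every mutant was thus far below every control in both batches, and the mutant mean of 13.9 ± 7.64 TPM (SD, n = 5) was 6.25% of the control mean of 223 ± 65.4 TPM (SD, n = 6). The fitted log2 fold change was -4.37 ± 0.34 (SE), a fall to 0.0484 of the control level. These mutant levels rest on 10 to 88 reads per embryo, against 417 to 1191 in controls.

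The paralog was the more even of the pair. *Ube2b* was at 102 TPM at the lowest, 127 at the median and 167 at the highest of the controls. The mutants had 121, 95.5 and 72.3 TPM in batch 2 and 119 and 107 TPM in batch 1. The groups overlapped on this scale, with 2 of 5 mutants below the lowest control and none above the highest.

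In normalised counts, which are corrected for depth and not for length, *Ube2b* was at 764, 835 and 1172 at the lowest, median and highest control and at 744, 625, 511, 650 and 700 in the mutants. On that scale all 5 mutants were below all 6 controls, a pattern found in 0.632% of the 10448 genes tested. The log2 fold change of *Ube2b* was -0.45 ± 0.17 (SE), with a 95% interval from -0.78 to -0.12, which corresponds to 0.584 to 0.918 of the control level. After adjustment over all genes it missed the threshold (DESeq2, adjusted p = 0.18, unadjusted p = 0.0069). The estimate was below 0 in the main fit and in each of 22 other settings, from -0.57 to -0.29, and passed the threshold in none of them (smallest adjusted p = 0.11).

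**Figure D1:**
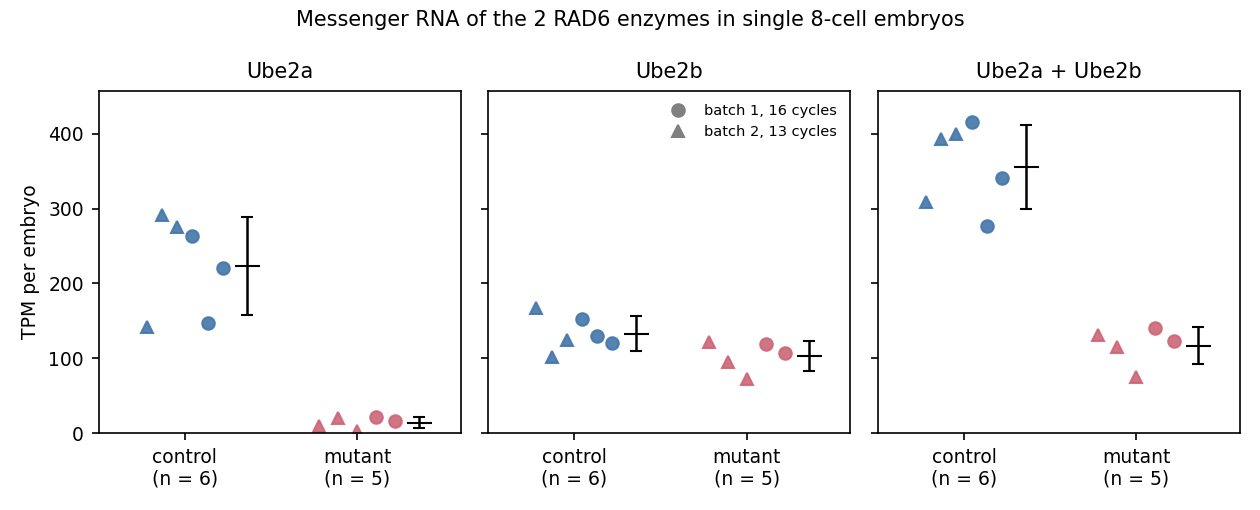
TPM of *Ube2a*, *Ube2b* and their sum in each embryo, with circles for batch 1, triangles for batch 2 and the mean with its SD at the side. The 5 mutants lie between 3.01 and 21.5 TPM for *Ube2a*, overlap the controls for *Ube2b*, and lie between 75.3 and 140 TPM for the sum, below every control.

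The summed RNA of the 2 enzymes was lower in every mutant. The sum was at 277 TPM at the lowest, 367 at the median and 416 at the highest of the controls. In the mutants it was 131, 115 and 75.3 TPM in batch 2 and 140 and 123 TPM in batch 1. The groups did not overlap, as the fall of *Ube2a* that chose the gene set would give, and the mutant mean was 32.8% of the control mean (38.2% in batch 1 and 29.2% in batch 2). *Ube2a* made up 45.9% to 74.0% of the sum in controls, so it was the larger part in 5 of 6 of them, and 4.00% to 17.1% in mutants.

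To hold the sum at the control mean with the *Ube2a* that was left, *Ube2b* would have had to reach 342 TPM, which is 2.58 times its control mean of 133 TPM or 1.36 on the log2 scale. This target follows from the fall of *Ube2a* that chose the genes and is taken as fixed, without its own error, so the comparison with it is a description. The corresponding ratio was 2.43 in batch 1 and 2.72 in batch 2. The interval of the count fit for *Ube2b* ended at 0.918 of the control level over both batches, at 1.13 in batch 1 alone and at 0.982 in batch 2 alone, in each case below the corresponding ratio. That fit is not corrected for length. On the log2(TPM + 1) scale, which is, limma gave -0.36 ± 0.17 (SE, adjusted p = 0.51), beside the 1.36 needed. An exact two-sided permutation test of *Ube2b* TPM, made regardless of batch, gave an unadjusted p of 0.0498, with the mutant mean lower. The measurement is of RNA only, and protein levels of the 2 enzymes were not measured in these embryos.

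Mixing of reads between the 2 genes was checked in their sequences. The longest run of identical bases between any transcript of *Ube2a* and any transcript of *Ube2b* was 18 bases, against a read length of 75. No 75-base stretch of either gene occurred in a transcript of another gene on either strand. The posterior SD that RSEM gives to a gene's count was 0 for both genes in all 11 embryos, so no read was shared out by estimate. The same held for *Rad18*, *Rnf20* and *Ubr2*, whereas 9.64% of the 75-base stretches of *Rnf40*, 4.63% of those of *Wac* and 1.64% of those of *Ubr1* also occurred in other genes, which makes their counts less certain (largest posterior SD 0.89 reads). *Ube2a* overlaps *C330007P06Rik*, a gene on the opposite strand, over 212 bases at its start when whole gene spans are compared, although their annotated transcripts share no 75-base stretch. The overlapping gene was at 11.2 to 29.6 TPM in controls and 8.77 to 23.6 TPM in mutants (log2 fold change -0.34 ± 0.26 SE, DESeq2 adjusted p = 0.68).

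**Figure D2:**
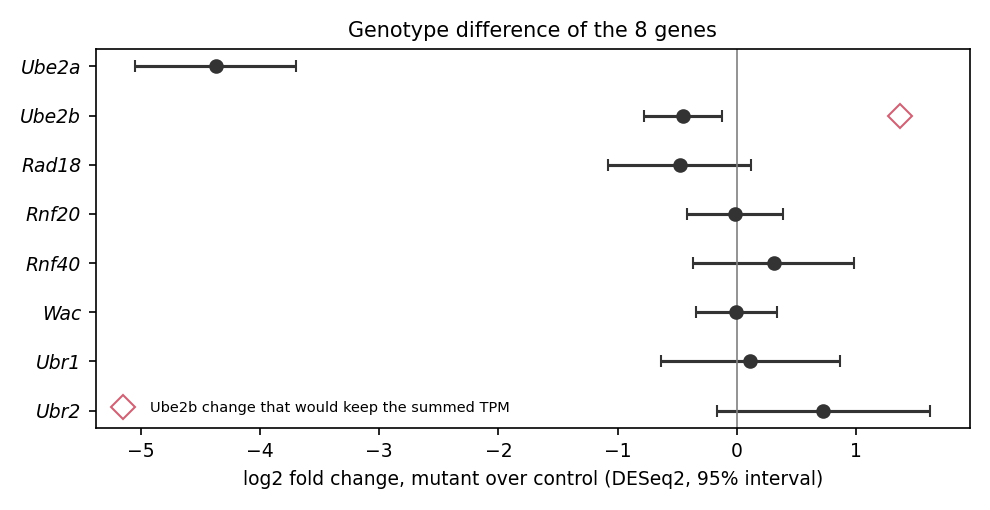
Log2 fold change of mutants over controls for the 8 genes with the 95% interval from DESeq2. The diamond marks the change of 1.36 that *Ube2b* would have needed, and the interval of *Ube2b* ends at -0.12.

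None of the 7 genes other than *Ube2a* was called changed, against a background of 1.45% of the 10448 genes tested (151 genes, 59 higher and 92 lower). A call required an adjusted p under 0.05 in DESeq2 with batch as a term and a mean above 10 normalised counts, which all 8 genes passed. Of the 7 estimates 4 were below 0 and 3 above, with a median of -0.01 on the log2 scale, beside -0.00124 over all genes tested. Their adjusted p-values ran from 0.18 for *Ube2b* to 0.996 for *Wac*, and *Ube2b* was the only 1 with an unadjusted p under 0.05. Neither edgeR nor limma called any of them, and in 152 estimates under all other settings none was called.

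*Rad18*, the ligase for PCNA, was at 8.4, 11.9 and 16.1 TPM at the lowest, median and highest control. The mutants had 9.66, 7.40 and 3.46 TPM in batch 2 and 13.3 and 10.6 TPM in batch 1. The lowest 2 mutants were under every control and the rest were within their range. The log2 fold change was -0.48 ± 0.31 (SE; 95% interval -1.08 to 0.12, DESeq2 adjusted p = 0.57), below 0 in all 22 other settings. The interval is wide enough to hold a fall to 0.472 of the control level.

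The H2B ligase pair differed in level. *Rnf20* was at 25.1, 32.7 and 58.0 TPM at the lowest, median and highest control and at 48.2, 43.2, 30.8, 41.6 and 33.0 TPM in mutants. Every mutant lay within the range of the controls, and the log2 fold change was -0.02 ± 0.20 (SE; 95% interval -0.42 to 0.38, DESeq2 adjusted p = 0.99). *Rnf40*, which pairs with RNF20 in the ligase, was lower, at 2.40, 4.32 and 12.1 TPM at the lowest, median and highest control. Its mutants had 3.14, 7.60, 5.80, 8.20 and 7.49 TPM, also inside the range of the controls. The log2 fold change of *Rnf40* was 0.31 ± 0.34 (SE; 95% interval -0.37 to 0.98, DESeq2 adjusted p = 0.82).

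*Wac*, the cofactor that ties the pair to RNA polymerase II, was at 85.4, 127 and 149 TPM at the lowest, median and highest control. The mutants had 140, 124, 116, 123 and 76.1 TPM, and only the last was outside the range of the controls. Its log2 fold change of -0.01 ± 0.17 (SE) had a 95% interval from -0.35 to 0.33, or 0.786 to 1.26 of the control level (DESeq2 adjusted p = 0.996). The sign of such small estimates turned with the setting for *Wac* and *Rnf20*.

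The N-degron ligases were at the low end. *Ubr1* was at 1.3, 2.66 and 3.51 TPM at the lowest, median and highest control and at 5.10, 0.78, 2.49, 1.2 and 3.43 TPM in mutants, so the mutants spanned a wider range than the controls on both sides. *Ubr2* was at 1.07, 1.35 and 1.88 TPM in controls, and at 3.08, 2.08 and 2.84 TPM in the mutants of batch 2 against 1.36 and 1.18 TPM in those of batch 1. Thus the 3 mutants above every control were those of batch 2. The log2 fold changes were 0.11 ± 0.38 (SE) for *Ubr1* and 0.72 ± 0.46 (SE) for *Ubr2*, with 95% intervals from -0.64 to 0.87 and from -0.17 to 1.62 (DESeq2 adjusted p = 0.96 and 0.56). The fit in batch 1 alone gave -0.00218 for *Ubr2* and that in batch 2 alone gave 1.25. With 10 to 152 reads of *Ubr2* per embryo, the interval ran from 0.888 to 3.07 of the control level.

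**Figure D3:**
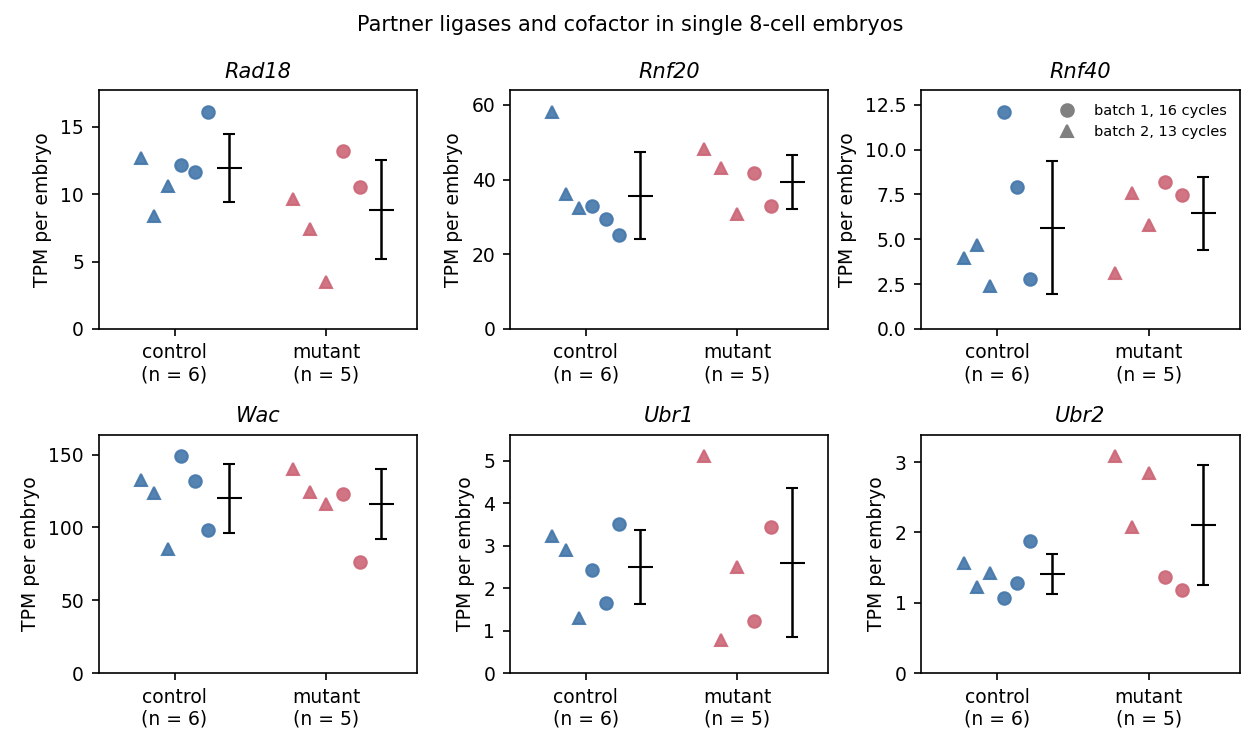
TPM of the 6 partner genes in each embryo (circles batch 1, triangles batch 2, mean with SD at the side). The groups overlap for all 6, and the 3 batch 2 mutants stand above the controls for *Ubr2*, at 2.08 to 3.08 TPM.

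Within the controls the order of mean levels was *Ube2a* (223 TPM), *Ube2b* (133), *Wac* (120), *Rnf20* (35.7), *Rad18* (11.9), *Rnf40* (5.64), *Ubr1* (2.50) and *Ubr2* (1.41). The ranges of neighbours overlapped between *Ube2a* and *Ube2b*, *Ube2b* and *Wac*, *Rad18* and *Rnf40*, *Rnf40* and *Ubr1*, and *Ubr1* and *Ubr2*. *Ube2a* was nonetheless the higher of the pair in 5 of 6 controls. In the mutants the order began with *Wac* at 116 TPM, *Ube2b* at 103 TPM, *Rnf20* at 39.4 TPM and *Ube2a* at 13.9 TPM.

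The genotype difference was also compared between the batches, since amplification differed. The interaction of genotype and batch was called for none of the 7 genes other than *Ube2a* (background 0.0573% of 10472 genes tested, adjusted p of 0.9997 for each in DESeq2, none with an unadjusted p under 0.05, and none called by edgeR). For *Ube2b* it was 0.28 ± 0.34 (SE) on the log2 scale, batch 1 less batch 2. For *Ube2a* the value was 0.92 ± 0.67 (SE), given as a description. For *Ubr2* the interaction was -1.26 ± 0.92 (SE). The batches were also isolated and processed separately, so cycle number cannot be told apart from other differences between them. Among controls alone, none of the 8 was called between 16 and 13 cycles with DESeq2 or edgeR, where DESeq2 called 14.5% of 10304 genes. The nearest was *Rnf20*, lower with 16 cycles by -0.80 ± 0.31 (SE; DESeq2 adjusted p = 0.065). It passed, at -0.98 with an adjusted p of 0.043, when control replicate 3 was left out, and it was -0.47 with an adjusted p of 0.26 without control replicate 1, the control with the most *Rnf20*.

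The E2 list held 37 mouse genes, with some for ubiquitin-like proteins and some inactive variants, and is not complete. In it *Ube2a* ranked 6th by mean control TPM and 24th by mean mutant TPM. *Ube2b* ranked 13th in controls and 12th in mutants. Of the summed mean TPM of this list, *Ube2a* carried 4.37% in controls and 0.324% in mutants, while *Ube2b* carried 2.6% and 2.40%. Of the 35 other E2 genes 31 passed the minimum and none was called, beside 1.45% of all genes, with a median log2 fold change of -0.05. At that background a count of 0 is no result about these genes. The 2 with the highest control levels were *Ube2c*, the mitotic E2 of the anaphase-promoting complex (1559 ± 143 TPM in controls and 1286 ± 179 in mutants), and *Ube2l3*, which serves HECT and RBR ligases (557 ± 115 and 568 ± 60.2 TPM). *Ube2c* (log2 fold change -0.29, DESeq2 adjusted p = 0.42) and *Ube2m*, the NEDD8 E2 (-0.77, adjusted p = 0.41), were the only 2 with an unadjusted p under 0.05.

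**Figure D4:**
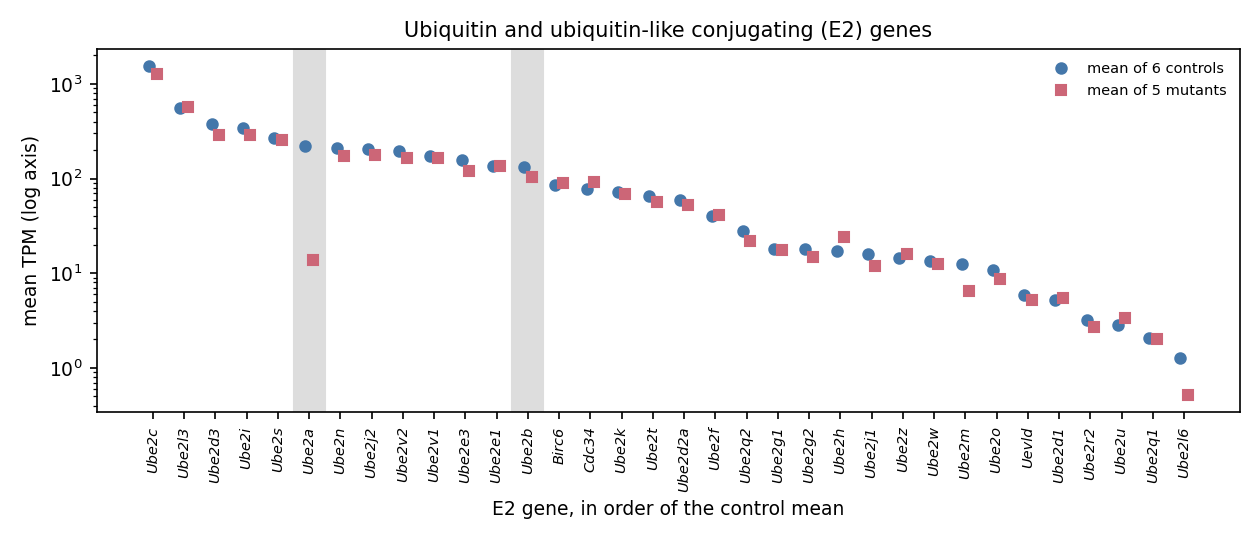
Mean TPM on a log axis of the 34 listed E2 genes above 1 TPM in controls, in order of the control mean, with *Ube2a* and *Ube2b* shaded. The mean of *Ube2a* falls from 223 TPM in controls to 13.9 TPM in mutants. None of the other E2 genes shown that passed the minimum was called changed, and *Ube2l6* did not pass it.

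The other genes of the RAD6 reactions were read from 6 further lists. Together with the E2 list these held 85 genes, of which 77 were tested and none was called by DESeq2, edgeR or limma, which is near the background of 1.45%, with a median log2 fold change of -0.04 and 3 genes at an unadjusted p under 0.05. In the H2B branch all 6 genes of the PAF1 complex, which brings RAD6 and its ligase to RNA polymerase II, were tested (median -0.02, led by *Wdr61* at 144 TPM and *Leo1* at 60.8 TPM in controls). The deubiquitinase list, with *Eny2* (93.0 TPM) and *Usp7* (78.4 TPM) at the top, had a median of -0.05 over 5 genes. The methyltransferases that need ubiquitinated H2B, with the histone chaperone FACT, had a median of 0.11 over 7 genes. There *Ssrp1* and *Supt16*, the 2 subunits of FACT, had 45.4 and 22.3 TPM in controls and 48.3 and 23.6 TPM in mutants.

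In the PCNA branch 12 of 13 genes were tested, with a median of -0.00323. *Usp1*, which removes ubiquitin from PCNA, was at 179 TPM in controls and 165 TPM in mutants, and *Mad2l2*, a subunit of polymerase zeta, was at 137 and 118 TPM. *Pcna* itself had a log2 fold change of -0.27 ± 0.17 (SE; DESeq2 adjusted p = 0.58). *Polk*, a translesion polymerase, was at 1.97 TPM in controls and 5.02 TPM in mutants (1.27 ± 0.56 SE, adjusted p = 0.31). It was called, at 2.00 with an adjusted p of 0.0096, when control replicate 1 was left out, and in no other setting run. In the N-degron branch the median was 0.14 over 10 genes, with the aminopeptidase *Metap2* at 749 and 762 TPM and the ligase-related *Kcmf1* at 92.2 and 102 TPM. Among ubiquitin and E1 genes the median was -0.06 over 6, and *Rps27a*, the gene of highest level, was at 2208 TPM in controls and 2169 TPM in mutants.

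The effective length is the number of positions where a read can start, averaged over a gene's isoforms by their estimated level. As given by RSEM, this length was lower for *Ube2a* in mutants. It was 756, 854 and 999 bases at the lowest, median and highest control and 616, 655, 645, 699 and 645 bases in the mutants. All 5 mutants were below all controls, as in 0.172% of 10446 genes, and the means differed by -212 bases. The length is estimated from the reads whose loss chose the gene, so no test is given. The annotation used here holds 9 transcripts of *Ube2a*, of 287 to 1732 bases in full length, a measure that is longer than the effective length. The mutant estimates rest on the 10 to 88 reads given above, and the part of that depth in the shorter length was not tested. With the length as an offset in DESeq2, *Ube2b* was at -0.35 (adjusted p = 0.43). For *Ube2b* the effective length was 1310 to 1536 bases in controls and 1247 to 1494 bases in mutants (mean difference -88.2 bases, exact two-sided permutation test, unadjusted p = 0.16 and 0.65 after adjustment over all genes). Over 13 alternatives the difference ran from -126 bases without mutant replicate 5 (exact p = 0.048) to -42.1 bases in batch 1 alone (exact p = 0.6).

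**Figure D5:**
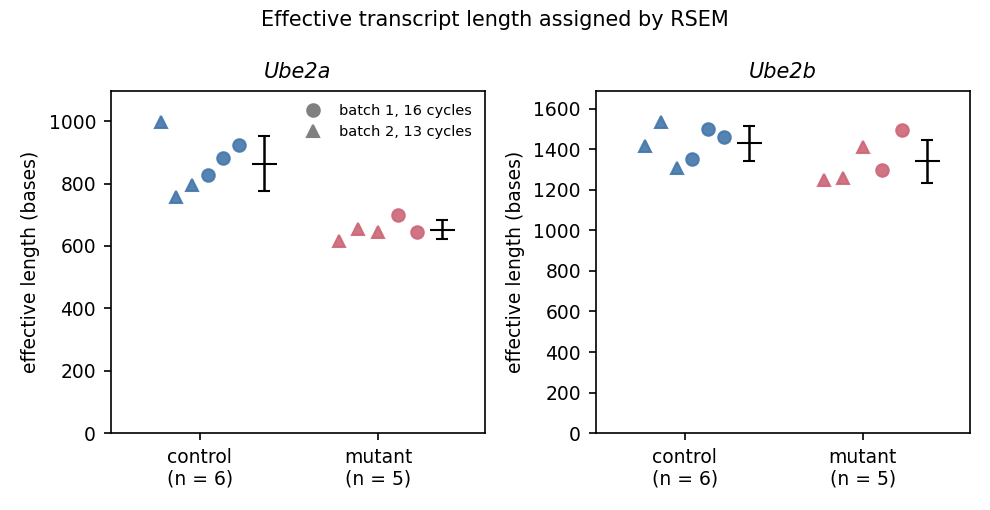
Effective length in bases that RSEM gave to *Ube2a* and *Ube2b* in each embryo (circles batch 1, triangles batch 2, mean with SD at the side). For *Ube2a* the mutants lie at 616 to 699 bases and the controls at 756 to 999, while for *Ube2b* the groups overlap.

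The X chromosome around *Ube2a* was read gene by gene. Leaving out the overlapping *C330007P06Rik*, the 3 nearest expressed genes on the side of lower coordinates were *Gm14549*, *Slc25a5* and *Akap17b*, 56700 to 228505 bases away, and on the other side *Nkrf*, *Rpl39* and *Upf3b*, 3318 to 207456 bases away. None of the 6 was called, which at a background of 1.45% is no result about them. Their log2 fold changes ran from -0.60 ± 0.36 (SE) for *Nkrf*, the nearest of these, to 0.65 ± 0.57 for *Gm14549* (DESeq2 adjusted p of 0.54 and 0.73). *Slc25a5*, a mitochondrial ADP and ATP carrier, was at 395 ± 152 TPM in controls and 363 ± 190 TPM in mutants, and the ribosomal protein gene *Rpl39* at 894 ± 255 and 923 ± 309 TPM.

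The 5 genes whose pattern was most like that of *Ube2a*, by Pearson's r of log2(TPM + 1) less the batch mean over the 11 embryos, were *Pfdn4* (r = 0.97), *Uchl3* (0.95), *Cenpn* (0.94), *Cnih4* (0.93) and *Selenow* (0.93). These values are a description, since the embryos share their genotype and batch. *Pfdn4*, a prefoldin subunit, was at 52.3 ± 10.9 TPM in controls and 4.74 ± 1.55 TPM in mutants (SD), and *Selenow*, a small selenoprotein gene, at 214 ± 82.2 and 14.3 ± 4.98 TPM. *Uchl3*, a deubiquitinase, was at 123 ± 34.5 and 35.9 ± 5.95 TPM. By the same measure r with *Ube2a* was 0.63 for *Ube2b*, 0.64 for *Rad18* and -0.68 for *Ubr2*, and between -0.31 and 0.05 for the other 4.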

How the data were processed

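Single-end 75-base reads of 11 embryos were mapped by the authors with STAR 2.6.0c to GRCm38.p6 and quantified with RSEM, and the version of DESeq2 named in the processing notes is 1.22.2. The deposited tables, 1 per embryo, hold expected counts, TPM, effective length and the posterior SD of the count for 54146 genes. A deposited table of the authors' own comparison (fold changes and p-values) was not used. The library kit is not stranded. The groups come from the sample labels.

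Expected counts were rounded and fitted in DESeq2 1.42.0 with batch and genotype as terms, in R 4.3.3. A gene was called at a Benjamini-Hochberg adjusted p under 0.05 and a mean above 10 normalised counts. Alternatives were edgeR 4.0.16 (quasi-likelihood test), limma 3.58.1 on log2(TPM + 1), other scaling, filters and covariates, single batches and each embryo left out. Exact permutation tests were two-sided over every assignment of the embryos regardless of batch, with a smallest possible p of 0.0022. The p-values measure the spread between single embryos.

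The named genes were the 8 members, in each list every called gene and the 2 of highest control TPM, 3 expressed neighbours on each side of *Ube2a*, and the 5 genes most like it. One gene under this rule is not reported here. Other names (*Klf5*, *Inha*, *Foxl2*, *Ovgp1*, *Ube2m*, *Polk*, *Pcna* and *C330007P06Rik*) were chosen after their values were seen. The members and lists were chosen with earlier results of these data known.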

Additional observations from a re-analysis of the deposited data

Results flagged for a closer look

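Across 36 groups of values of the 8 genes (TPM, effective length, and the sum and share of *Ube2a* and *Ube2b*), 4 held an embryo set far apart from the others of its group by Dixon's criterion, which chance alone meets in about 1 in 20 groups. *Rnf20* was at 58.0 TPM in control replicate 1, while the other controls were at 25.1 to 36.2 TPM. The effective length of *Rnf20* was 2543 bases in mutant replicate 4 and 3096 to 3206 bases in the other mutants. For *Rnf40* the effective length was 4730 bases in control replicate 5 against 5205 bases in each of the other controls. Conversely, *Rnf40* stood at 5205 bases in mutant replicate 5 and at 4727 to 4862 bases in the other mutants. Of the read-length stretches of *Rnf40*, 9.64% also occur in transcripts of other genes. *Ube2a* and *Ube2b* held no such embryo.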

How the results depend on the processing

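Over 22 alternatives none of the 7 genes other than *Ube2a* was called, and *Ube2b* stayed below 0. The log2 fold change of *Ube2a*, whose fall chose the genes, ran from -4.79 to -3.86. *Ubr1* and *Ubr2* gave no value with a minimum of 100 normalised counts. Signs turned for 4 genes, none of them called. *Wac* became 0.000137 with edgeR, 0.000238 with TMM factors, 0.057 without the batch term, 0.22 in batch 2 alone and 0.00275 with the Y-linked covariate. *Rnf20* became 0.14 with limma, 0.15 with the length offset, 0.021 without the batch term, 0.14 in batch 1 alone and 0.00202 with the Y-linked covariate. *Ubr1* became -0.060 with limma, and *Ubr2* -0.00218 in batch 1 alone. With each embryo left out in turn *Wac* ran from -0.11 to 0.12, *Rnf20* from -0.093 to 0.17, *Ubr1* from -0.014 to 0.31, *Ube2b* from -0.50 to -0.33, *Rad18* from -0.60 to -0.29, *Rnf40* from 0.12 to 0.52 and *Ubr2* from 0.43 to 0.90. Between 16 and 13 cycles limma gave 0.056 for *Ube2b*, 0.15 for *Wac* and 0.037 for *Ubr1*. Leaving out 1 control gave -0.30 to 0.016 for *Ube2b* and -0.26 to 0.038 for *Wac*, -0.98 to -0.47 for *Rnf20* (-0.48 with limma), and 0 to 1 of the 8 genes called (*Rnf20*, without control replicate 3). The pathway lists held 0 to 1 called gene with 1 embryo left out. The summed TPM in mutants was 29.2% to 39.0% of controls over 14 alternatives, and 31.2% to 35.8% with 1 embryo left out. The effective length of *Ube2a* differed by -205 bases in batch 1 and -212 bases in batch 2, and by -233 to -185 bases with 1 embryo left out. That of *Ubr2* turned to -29.4 bases in batch 1 and ran from -13.7 to 1245 bases with 1 embryo left out. No paired analysis was possible because the labels give no replicate numbers and those used here only follow the order of the samples. The causes of these shifts were not tested. Counts were as low as 10 reads for *Ube2a* in a mutant and for *Ubr2* in a control.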

Other observations

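*Ube2a* is X-linked, and its level was set beside *Xist*, the RNA of the inactive X, and 4 Y-linked genes, as values with no test. In the 2 controls with *Xist* at 0 TPM and summed Y-linked RNA of 37.1 and 40.7 TPM, *Ube2a* was at 142 and 147 TPM. These were the 2 lowest controls. In the 3 controls with *Xist* at 42.2 to 96.9 TPM and Y-linked RNA of 0.03 to 0.13 TPM, *Ube2a* was at 220 to 275 TPM. Control replicate 2 held both kinds of RNA, *Xist* at 81.8 TPM and Y-linked RNA at 18.2 TPM, with *Ube2a* at 291 TPM, the highest of all.

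The mutants showed the same order at a much lower level. In the 2 mutants with *Xist* at 0.51 and 0.40 TPM, *Ube2a* was at 9.45 and 3.01 TPM, and in the 3 with *Xist* at 82.2 to 92.6 TPM it was at 16.1 to 21.5 TPM. With Y-linked counts as a covariate *Ube2b* stayed at -0.44 on the log2 scale (DESeq2 adjusted p = 0.34).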
